A study of Mus musculus with 4 samples.

Results

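The genes of the cytoplasmic ribosomal proteins were examined in naive CD4+ T cells of TACI-/- and wild-type (WT) mice. They were taken from the array's platform annotation by symbol. A probe set was a member where it had exactly 1 gene symbol, made of Rpl or Rps and a number with optional letters, or Rplp and a number, or Rpsa. The ribosomal S6 kinases, the pseudogene symbols ending in -ps and Rps19bp1, an Rps19 binding protein, were left out. This gave 109 of 41345 probe sets, which stood for 68 of the 22180 genes with a probe set of 1 symbol. By symbol alone, 42 of these genes were counted with the large subunit (Rpl and Rplp) and 26 with the small subunit (Rps and Rpsa). These counts include variant and retroposed copies, such as Rpl6l and Rps23rg1, whose place in a ribosome was not checked. A further 57 probe sets name a ribosomal protein gene together with other symbols and were not used. Rpl12, Rpl31, Rps2 and Rps27a are among the genes without a probe set of 1 symbol and were not analysed here. Fau, whose product carries a small-subunit protein under another name, does not match the symbols; its difference was -0.04 on the log2 scale, at 9.91 log2 units in TACI-/- and 9.94 in WT cells.

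A cytoplasmic ribosome has a small subunit, which reads the messenger RNA (mRNA), and a large subunit, which joins the amino acids. Each is built from ribosomal RNA and many proteins, most present in a single copy, so their genes are expressed at high and matched levels in almost every cell. Resting lymphocytes hold ribosomal protein mRNAs in a partly untranslated store and load them onto ribosomes when they are activated. These mRNAs are known as TOP mRNAs, because their 5′ end is a C followed by an uninterrupted run of C and T (U in the RNA), through which mTOR signalling and the protein LARP1 set their translation. Mammalian genomes also hold very many processed copies of these genes, spliced sequences inserted elsewhere.

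The cells were CD4+ CD62Lhigh CD44low CD25- T cells, sorted by flow cytometry out of spleen and lymph node tissue of C57BL/6 mice. TACI, encoded by Tnfrsf13b, belongs to the tumour necrosis factor receptors and binds BAFF and APRIL. The TACI-/- group lacked it in the whole animal as far as the labels say, and they do not name the allele. Each genotype had 2 biological replicates by its labels, each hybridised as biotin-labelled total RNA to its own Affymetrix Mouse Gene 2.0 ST array, and the tissue was pooled; how many mice went into a pool is not given.

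Array values are on a log2 scale, and arrays have no read depth, so their number limits the precision. Any 2 arrays correlated at 0.976 to 0.984 (Pearson's r) across the 13782 genes tested. Tnfrsf13b was at 2.91 log2 units in TACI-/- and 2.99 in WT cells, under the filter for low values (3.74 to 3.77 by array) on every array, so it does not check the labels. Of the markers of the sort, Cd4 was at 10.4 to 10.6 and Cd3e at 11.2 to 11.6 log2 units on the 4 arrays, and Cd8a was under the filter on all 4. Markers that the sort should keep low were above the filter on all 4 arrays: Cd8b1 at 5.73 to 6.59, Il2ra, which encodes CD25, at 4.65 to 5.25 and Cd44 at 5.65 to 5.9957 log2 units. Of 12 B cell markers with a probe set, 9 were tested and 3 were under the filter on all 4 arrays. All 9 had higher means in TACI-/- cells, with a median difference of 0.35, and 4 had an unadjusted limma p under 0.05. Ly86, counted in the 9 and in the 4, was under the filter on both WT arrays. It was tested only through the TACI-/- arrays, where it was higher, so its direction was tied to its entry. The mean level of the 12 was 4.55 and 4.33 log2 units in TACI-/- replicates 1 and 2 and 4.08 and 4.15 in WT replicates 1 and 2. Of the 9 NK and CD8 markers 4 were under the filter on every array and 4 were tested, with differences of -0.87 ± 0.15 (Klrd1), -0.65 ± 0.16 (Cd8b1), 0.17 (Nkg7) and 0.08 (Prf1). Of the 10 myeloid markers 3 were under the filter on every array and 6 were tested, with differences from -0.49 ± 0.15 (Lyz2) to 0.71 ± 0.17 (Cd68). None of these markers passed limma's adjusted threshold; Klrd1, Cd8b1, Lyz2 and Cd68 had an unadjusted p under 0.05. The part of these markers in the differences below was not tested. In such bulk RNA, fewer cells of a type and less RNA per cell cannot be told apart.

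Tracts of C and T near the start sites of the members were counted and are shown here because of the TOP motif of the family; the search did not require the tract to begin at the first base of the mRNA. A promoter entry in RefSeq (build GRCm38.p6) was matched by symbol for 47 of the 61 tested members. A window of 30 bases, 15 before the listed start and 15 from it on, was searched on the strand of the gene only. The tract searched for was a C followed by at least 4 bases that are each C or T. It was present for 30 of the 47 members (63.8%), counting a gene with several listed starts where any of them had it. The share was 40.2% of 26957 other genes with an entry and 41.9% of the 10697 others that were tested. The windows shown are the 4 with the longest tracts, followed by the 4 members with the lowest unadjusted p among those with an entry. Capitals mark the tract, and each sequence runs 5′ to 3′ on the strand of the gene.
Rpl7a: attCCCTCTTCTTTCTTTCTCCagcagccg
Rpl34: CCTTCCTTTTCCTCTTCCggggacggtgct
Rpl35: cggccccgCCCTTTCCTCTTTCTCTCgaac
Rpl15: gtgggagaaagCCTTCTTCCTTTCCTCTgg
Rpl37: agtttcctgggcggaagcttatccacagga
Rpl9: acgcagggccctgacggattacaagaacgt
Rps23: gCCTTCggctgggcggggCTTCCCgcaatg
Rpl39: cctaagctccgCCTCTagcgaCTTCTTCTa
These lie at chr2:26910792-26910821 on the plus strand (Rpl7a), chr3:130730323-130730352 on the minus strand (Rpl34), chr2:39005117-39005146 on the minus strand (Rpl35) and chr14:18270972-18271001 on the minus strand (Rpl15). The others lie at chr15:5116598-5116627 on the plus strand (Rpl37), chr5:65391417-65391446 on the minus strand (Rpl9), chr13:90923107-90923136 on the plus strand (Rps23) and chrX:37085208-37085237 on the minus strand (Rpl39). The longest tract was 19 bases, in Rpl7a, against 8 in Rpl39 and 6 in Rps23. Rpl37 and Rpl9 had no tract in this window, which says only that these letters are not in these 30 bases. The difference between genotypes had a median of -0.05 for the 30 members with a tract, 19 of them below 0, and of -0.08 for the 17 without, 13 of them below 0. The medians lay within a few hundredths of each other, while single members ranged from -0.76 (Rps23) to 0.53 (Rpl6) with a tract and from -0.67 (Rpl9) to 0.71 (Rpl37) without. Rpl3 and Rpl23a had no entry.

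Across the family, 1 of the 61 tested ribosomal protein genes differed between genotypes past the threshold. It was Rpl3, which was higher in TACI-/- cells, and no member was called lower. The test was limma on the deposited log2 values, with Benjamini-Hochberg adjustment over all 13782 genes and a threshold of 0.05. Over all genes 19 passed (0.138%), 15 of them higher (0.109%). At an unadjusted limma p under 0.05, 2 members were higher, where 4.94% of all genes were, and 6 were lower, where 3.84% of all genes were. The groups did not overlap for 4 members that were higher, where 20.5% of all genes were, and for 17 that were lower, where 18.1% of all genes were. Of the 68 member genes, 7 were under the filter and were not tested: Rpl10l, Rpl27a, Rpl32l, Rpl3l, Rplp2, Rps15 and Rps4l. Here and below a difference is the TACI-/- mean minus the WT mean on the log2 scale, its error is the limma standard error (SE), and each gene is given by its brightest probe set unless another is named.

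Most members differed little. The median difference was -0.06, against 0.01 over all genes, and the middle 50% of members lay between -0.15 and 0.03. Of the 61 members, 40 were within 0.15 of 0 and 50 within 0.3. The median SE of a member was 0.15, so differences of this size are not larger than their error. A difference beyond 0.3 in either direction was present in 18% of the members and 15.7% of all genes. Below 0 were 41 of 61 members (67.2%), against 48.2% of all genes. That majority depended on the scaling and on single arrays: it was 31 of 61, with a median of -0.003, after a further quantile normalization, 30 of 61 without TACI-/- replicate 2, 34 of 61 without WT replicate 2, 49 of 60 without TACI-/- replicate 1 and 48 of 60 without WT replicate 1. No direction for the family can be read from these counts.

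**Figure D1:**
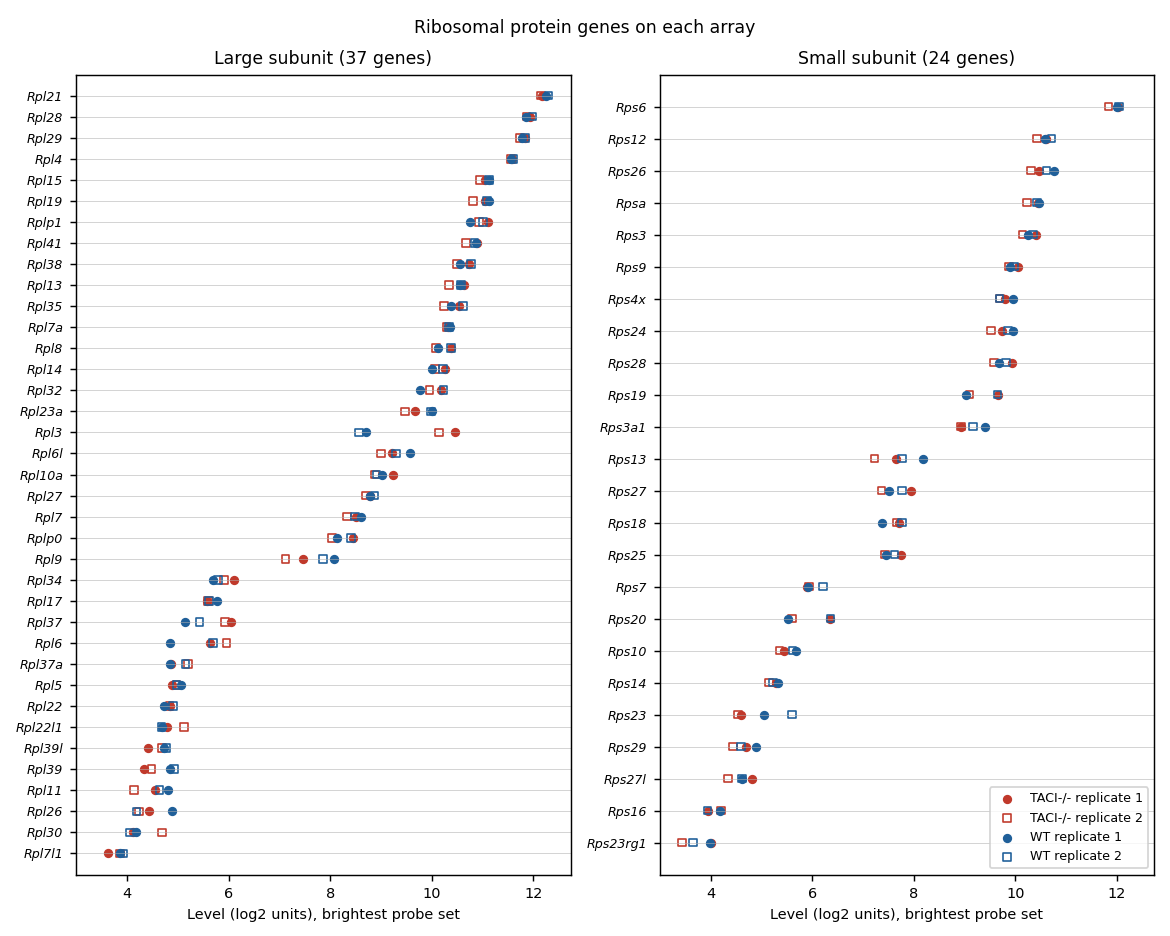
Level of the 61 tested ribosomal protein genes on each of the 4 arrays, in log2 units on the horizontal axis, large subunit on the left and small subunit on the right, each gene by its brightest probe set. Red symbols are TACI-/- and blue symbols WT, circles replicate 1 and squares replicate 2; for most genes the 4 symbols lie close together, and Rpl3 is the gene whose genotypes stand furthest apart.

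The subunits had similar medians and different upper ends; the difference between subunits was not tested. The 37 tested genes of the large subunit had a median difference of -0.05, with 25 below 0 and a range from -0.67 to 1.67. The 24 tested genes of the small subunit had a median of -0.08, with 16 below 0 and a range from -0.76 to 0.12. Unadjusted limma p under 0.05 was reached by 2 higher and 3 lower genes of the large and by 0 higher and 3 lower genes of the small subunit, beside 4.94% higher and 3.84% lower over all genes. The groups were separated for 4 higher and 11 lower large-subunit genes and for 0 higher and 6 lower small-subunit genes, beside 20.5% higher and 18.1% lower over all genes. The median level of the large-subunit genes was 9.22 and 8.88 log2 units in TACI-/- replicates 1 and 2 and 8.79 and 8.87 in WT replicates 1 and 2. For the small subunit it was 7.85 and 7.55 in TACI-/- and 7.84 and 7.77 in WT cells. In both subunits the 2 TACI-/- arrays lay further apart than the 2 WT arrays, and the genotypes overlapped for the small subunit. For the large subunit both TACI-/- medians of levels were above both WT ones, although the median of the differences was below 0. After a further quantile normalization the medians were 0.02 for the large and -0.02 for the small subunit, so the large-subunit median changed sign.

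The spread of the differences varied with the brightness of the probe set. The mean level ran from 3.76 log2 units for Rps23rg1, which is named as a retroposed copy of Rps23 and may be no part of a ribosome, to 12.2 for Rpl21. Probe sets differ in how they bind, so these levels order the probe sets and not the mRNAs. The 30 members at a mean of 9 or more had a median difference of -0.06, with 22 below 0, and apart from Rpl3 the other 29 lay between -0.42 and 0.14. Over all genes this bright, 311 in number, the median was -0.04 and 60.8% were below 0. The 31 dimmer members spread from -0.76 to 0.71. Apart from Rpl3, the differences of 0.5 or more were thus all among the dimmer probe sets.

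**Figure D2:**
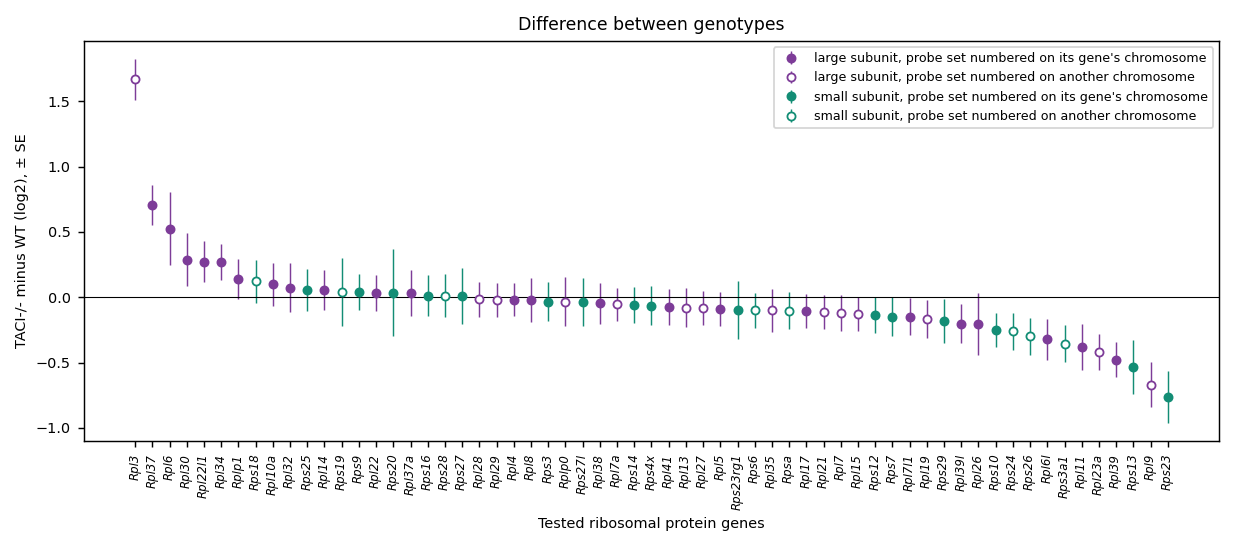
Difference between genotypes (TACI-/- minus WT, log2, vertical axis) for each of the 61 tested ribosomal protein genes, ordered by size, with bars of 1 SE. Purple is the large and green the small subunit, and open symbols are probe sets numbered among genes of another chromosome; Rpl3 stands at 1.67, and 50 of the genes lie within 0.3 of 0.

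Rpl3 encodes a core protein of the large subunit that reaches towards the peptidyl transferase centre, where peptide bonds form. Its brightest probe set was at 10.5 and 10.1 log2 units in TACI-/- replicates 1 and 2 and at 8.70 and 8.57 in WT replicates 1 and 2. Both TACI-/- arrays were well above both WT arrays. The difference was 1.67 ± 0.16 (SE), or 3.17-fold, with a limma adjusted p of 0.0288. Its second probe set was at 8.83 and 8.72 in TACI-/- and 8.13 and 8.08 in WT cells, again with no overlap. Here the difference was 0.67 ± 0.13, with a limma adjusted p of 0.252 over all probe sets. The third was at 3.31 and 3.21 in TACI-/- and 3.42 and 3.68 in WT cells, so TACI-/- was the lower group. It was under the filter on every array and was not tested. The 2 brighter probe sets thus pointed the same way with sizes that differed by 1.00 on the log2 scale. The brightest is numbered among genes of chromosome X, and the other 2 among genes of chromosome 15, where Rpl3 lies. Since this array's probe set numbers follow the genome, this is a fact of its design. What the brightest set binds was not tested.

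The call of Rpl3 was close to the threshold and depended on the setting. It was kept with the 20th and 60th percentile filters, median centring, a further quantile normalization, a variance trend, robust variance and the replicate block. There limma's adjusted p ran from 0.0021 (variance trend) to 0.0469 (20th percentile filter). Leaving out any 1 of the 4 arrays gave adjusted p-values of 0.193 to 0.273, with differences of 1.51 to 1.82, under the assumption that the lone array of a genotype varies like the other group. Rpl3 also did not pass with no low-value filter (limma adjusted p = 0.0565), with the mean over its probe sets (difference 0.68, adjusted p = 0.249) or with no variance moderation (adjusted p = 0.62).

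**Figure D3:**
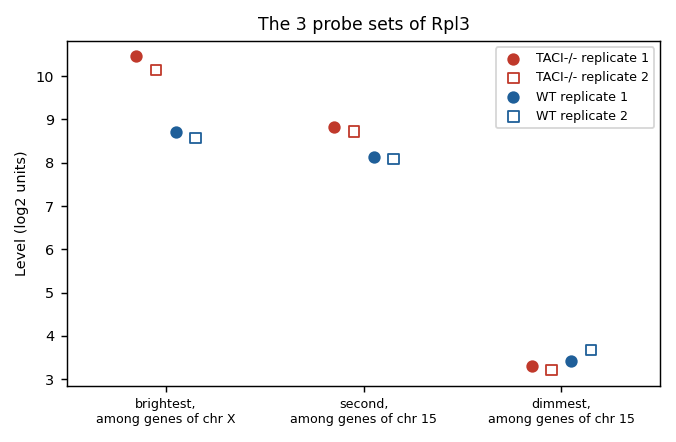
Level (log2 units, vertical axis) of the 3 probe sets of Rpl3 on each of the 4 arrays, ordered from the brightest, with the chromosome among whose genes each is numbered. Red is TACI-/- and blue WT, circles replicate 1 and squares replicate 2. TACI-/- lies above WT in the 2 brighter probe sets, more widely in the brightest. In the dimmest, which was under the filter and not tested, TACI-/- lies below WT.

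Genes that lie next to Rpl3 on chromosome 15 were also set side by side, since Tnfrsf13b lies on chromosome 11. Of the 20 tested genes nearest to it in RefSeq's order, 10 on each side, 5 had an unadjusted limma p under 0.05. All 5 were lower in TACI-/- cells, and over all genes 8.78% had such a p. Dmc1 and D730005E14Rik, among the 5, were under the filter on both TACI-/- arrays. They were tested only through the WT arrays, where they were higher, so their direction was tied to their entry. Apobec3, a cytidine deaminase that restricts retroviruses, lies at the second tested place before Rpl3 and was at 6.49 and 6.54 log2 units in TACI-/- and 8.77 and 8.32 in WT cells. Its difference was -2.03 ± 0.18, with a limma adjusted p of 0.0246, the 1 call among the 20. The tested genes on either side of Apobec3 were D730005E14Rik, with a difference of -1.65 ± 0.33, and Cbx7, a Polycomb protein, with -0.55 ± 0.13, and neither passed after adjustment. The tested neighbours after Rpl3 included Snord83b, at -0.07 ± 0.20, Snord43, at 0.30 ± 0.18, and the translation and stress factor Atf4, at 0.31 ± 0.15. The Rpl3 call, higher where Apobec3 was lower, came from the probe set numbered among genes of chromosome X; the tested Rpl3 set numbered on chromosome 15, at 0.67, was not called. This neighbourhood was looked up after the value of Rpl3 was known.

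Rpl37, a small zinc-binding protein of the large subunit, was next in size among the members that were higher. It was at 6.05 and 5.93 log2 units in TACI-/- and 5.14 and 5.42 in WT cells. The groups were separated, with a difference of 0.71 ± 0.15 (limma adjusted p = 0.271). Rpl6, a large-subunit protein with a difference of 0.53 ± 0.28, was at 4.84 in WT replicate 1 and between 5.63 and 5.96 on the other 3 arrays, so its groups overlapped. Without that array the difference was 0.10, and without WT replicate 2 it was 0.95. Rpl30, which in yeast binds its own transcript, had 0.29 ± 0.20 (5e-06 without TACI-/- replicate 2 and 0.58 without TACI-/- replicate 1), and Rpl34 had 0.27 ± 0.14. Rpl22l1, the close relative of Rpl22, had 0.27 ± 0.16, against 0.03 ± 0.14 for Rpl22, a protein that developing T cells need. The last of the 10 largest positive differences were Rplp1 at 0.14, Rps18 at 0.12, Rpl10a at 0.10 and Rpl32 at 0.07. All 4 had overlapping groups and differences smaller than their SE.

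Among members with lower values in TACI-/- cells, 6 had an unadjusted limma p under 0.05 and none passed after adjustment. Rps23, which sits at the decoding centre, was at 4.58 and 4.54 log2 units in TACI-/- and 5.05 and 5.60 in WT cells. The groups did not overlap, and the 2 WT arrays were further apart than the 2 TACI-/- arrays. Its difference was -0.76 ± 0.20 (limma adjusted p = 0.334). Rpl9, a protein of the large subunit near the base of the stalk that binds translation factors, was at 7.47 and 7.12 in TACI-/- and 8.07 and 7.85 in WT cells, a difference of -0.67 ± 0.17 (limma adjusted p = 0.327). Both TACI-/- arrays were below both WT arrays. Rpl39, a very small protein that lines the exit tunnel, was at 4.33 and 4.48 in TACI-/- and 4.85 and 4.92 in WT cells, a difference of -0.48 ± 0.13 (limma adjusted p = 0.382). Replicates were close here, and the level was low in both genotypes.

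The other 3 were brighter. Rpl23a, at the mouth of the exit tunnel where the signal recognition particle docks, was at 9.67 and 9.47 log2 units in TACI-/- and 9.9999 and 9.98 in WT cells, a difference of -0.42 ± 0.14 (limma adjusted p = 0.498). Rps13, a core small-subunit protein, was at 7.65 and 7.23 in TACI-/- and 8.17 and 7.77 in WT cells, a difference of -0.53 ± 0.20 (limma adjusted p = 0.557). Its groups were separated by less than its replicates differed. Rps3a1, on the solvent side of the small subunit, was at 8.93 and 8.93 in TACI-/- and 9.41 and 9.16 in WT cells, a difference of -0.36 ± 0.14 (limma adjusted p = 0.568). The rest of the 10 largest negative differences were those of Rpl11, which with Rpl5 and 5S ribosomal RNA can bind Mdm2 (-0.38 ± 0.18), Rpl6l, named as a copy of Rpl6 (-0.32 ± 0.16), Rps26 (-0.30 ± 0.14) and Rps24 (-0.26 ± 0.14). Rps24 and Rps26 are among the genes mutated in Diamond-Blackfan anaemia. All 4 had groups that did not overlap. Of the 10, the brightest sets of Rpl9, Rpl23a, Rps3a1, Rps24 and Rps26 are numbered on other chromosomes. The sets of Rps3a1 and Rps24 on their own chromosomes were at 0.63 and 0.05. Those of Rpl9 and Rps26 were under the filter, and Rpl23a had none. The rest of the 10 are numbered on their own chromosomes.

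Grouped by place in the ribosome, 7 of 7 tested proteins of the tunnel exit side (Rpl17, Rpl19, Rpl23a, Rpl26, Rpl35, Rpl38 and Rpl39) had negative differences, with a median of -0.17 and a range from -0.48 to -0.05; over all members 67.2% and over all genes 48.2% were below 0. The brightest sets of Rpl19, Rpl23a and Rpl35 are numbered on other chromosomes, and the Rpl19 set on its own chromosome was at 0.09. The sign also varied between arrays. TACI-/- replicate 1 was above the WT mean for Rpl35 (10.545 against 10.496 log2 units) and Rpl38 (10.738 against 10.668), and below it for the rest of the 7. Rpl26 was at -0.20 ± 0.24 and Rpl19 at -0.17 ± 0.14, and apart from Rpl23a and Rpl39 none had an unadjusted limma p under 0.05. Of the P stalk, which recruits the elongation factors, Rplp0 was at -0.04 and Rplp1 at 0.14; Rplp2 was under the filter. The partners of 5S ribosomal RNA, Rpl5 and Rpl11, were at -0.09 and -0.38. On the peptidyl transferase side, Rpl3 stood alone: Rpl4 was at -0.02 and Rpl8 at -0.02, and Rpl10a, which belongs to the L1 stalk at the tRNA exit, was at 0.10. These 3 are bright probe sets, at 8.88 log2 units or more on every array.

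In the small subunit, 3 of 4 tested proteins of the decoding site and mRNA path had negative differences. They were Rps23, Rps26 and Rps3 (-0.03 ± 0.15), and Rps28 was at 0.01 ± 0.16. Of 5 small-subunit proteins tied to a named pathway, 4 were below 0, within -0.15 to 0.04. Rps6, the target of the S6 kinases, was at 12.0 and 11.8 log2 units in TACI-/- and 12.0 and 12.0 in WT cells, a difference of -0.10 ± 0.14. Rpsa, the laminin receptor precursor, had -0.10 ± 0.14, Rps14 -0.06 ± 0.13, Rps7 -0.15 ± 0.15 and Rps19, another Diamond-Blackfan gene, 0.04 ± 0.26. None of these 5 differed by more than its SE. Of the listed variant copies, which do not include Rpl6l (given above at -0.32), 4 were tested: Rpl22l1 at 0.27, Rps27l, a p53 target, at -0.04, Rpl7l1 at -0.15 and Rpl39l at -0.20. On an array, signal from near-identical copies cannot be told apart, which holds for these genes and for members with processed copies.

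Many members have several probe sets. Of the 68 genes, 25 had more than 1 (66 probe sets in all) and 43 had a single one. Of the 109 member probe sets, 97 were tested, together with all other probe sets of 1 symbol (14524 in all), of which 19 were called (0.131%). The 1 called among the members was the brightest of Rpl3 (limma adjusted p = 0.0289). For 7 probe sets the values were identical on all 4 arrays to those of another of the same gene, in Rps12, Rpl23a and Rps19, which leaves 102 distinct ones. In 22 genes at least 2 distinct probe sets were tested. In 12 of these 22 genes the probe sets had differences of opposite sign. The range within a gene had a median of 0.21 and was over 0.5 in 4 genes: Rpl3, Rps3a1, Rpl41 and Rplp1.

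**Figure D4:**
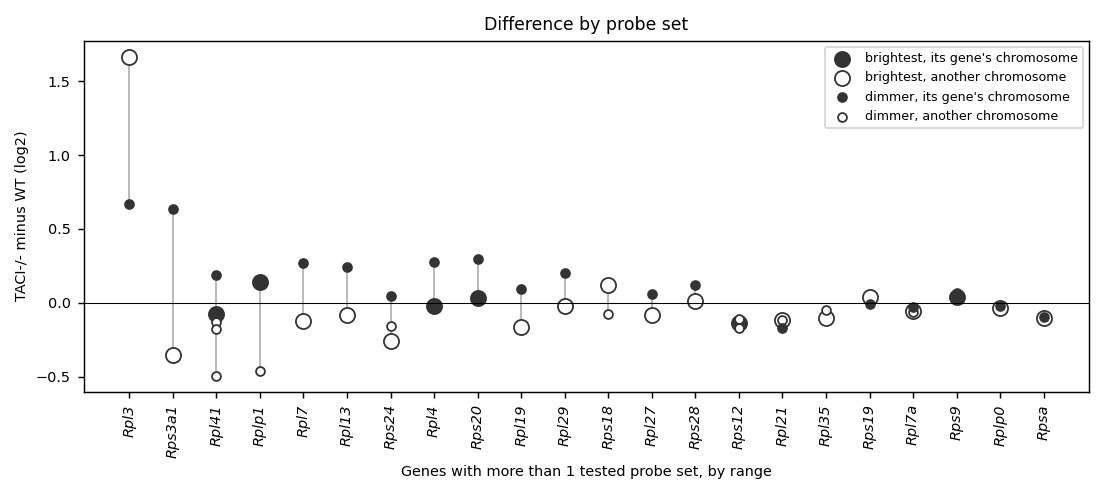
Difference between genotypes (TACI-/- minus WT, log2, vertical axis) of every tested probe set of the 22 genes with at least 2 distinct ones, ordered by the range within the gene. Large symbols are the brightest probe set and small ones the others, filled where the probe set is numbered on the chromosome of its gene; the range runs from 1.00 in Rpl3 down to under 0.01 in Rpsa.

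Rps3a1 showed the sharpest conflict of sign. Its brightest probe set, given above, had a difference of -0.36. The other was at 4.65 and 4.09 log2 units in TACI-/- and 3.71 and 3.77 in WT cells, a difference of 0.63 ± 0.20 (limma adjusted p = 0.485 over all probe sets). Each probe set separated the genotypes, one with WT higher and the other with TACI-/- higher. The dimmer set lay at the filter of 3.74 in WT cells, with WT replicate 1 under it and WT replicate 2 just above it. Rpl41, the smallest ribosomal protein, had 5 probe sets. From the brightest down their differences were -0.07, -0.13, -0.18, -0.49 and 0.19. The fourth was at 9.43 and 9.12 in TACI-/- and 9.95 and 9.58 in WT cells, a difference of -0.49 ± 0.19 (limma adjusted p = 0.544). Rplp1 had 0.14 in its brightest and -0.46 ± 0.17 in its second probe set (limma adjusted p = 0.526).

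The other 9 genes of opposite sign had smaller differences, given from the brightest probe set down. Among large-subunit genes, Rpl7 had -0.12 and 0.27, Rpl13 had -0.08 and 0.24, and Rpl4 had -0.02 and 0.28. Rpl19 had -0.17 and 0.09, Rpl29 had -0.02 and 0.20, and Rpl27 had -0.08 and 0.06. In the small subunit, Rps24 had -0.26, -0.16 and 0.05, and Rps18 had 0.12 and -0.08 with another under the filter, while Rps19 had 0.04 and -0.01 beside 1 identical set. In 7 of these 9 genes the brightest probe set was below 0 and the dimmest tested one above it. None of the 19 differences had an unadjusted limma p under 0.05.

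Probe sets pointed the same way in 10 genes. Apart from Rpl3 these were Rpl21 (-0.11, -0.12 and -0.17), Rpl7a (-0.05, -0.06 and -0.03), Rpl35 (-0.10 and -0.05, another under the filter), Rplp0 (-0.04 and -0.02) and Rpsa (-0.10 and -0.10). Rps12, with 8 probe sets of which 6 are identical, had -0.13, -0.17 and -0.11, Rps20 had 0.03 and 0.29, Rps28 had 0.01 and 0.12, and Rps9 had 0.04 and 0.07. The remaining 3 genes had 1 distinct tested value. Rpl23a had a pair of identical probe sets at -0.42. Rpl9 and Rps26 each had a second one under the filter.

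Where probe sets are numbered set the ribosomal protein genes apart from the rest of the array. For 40 of the 109 member probe sets (36.7%), the most frequent chromosome among the 10 nearest named probe sets by number was not the gene's own. For 33 of these all 10 neighbours were on that chromosome. For the brightest sets of Rpl7 and Rps18 only 5 were, and for a dimmer set of Rps24 only 4. Among other probe sets with a chromosome, the most frequent chromosome of the neighbours was not the gene's own for 200 of 23216 (0.861%). In 19 of the 25 genes with several probe sets the brightest was numbered on another chromosome. For 22 tested genes the brightest probe set was of this kind; they had mean levels of 7.62 to 12.2 log2 units and a median difference of -0.10, with 18 of 22 below 0. For the 39 genes with a brightest probe set on their own chromosome, the median level was 5.63 and the median difference -0.04, with 23 of 39 below 0.

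With each gene represented by the brightest probe set numbered on its own chromosome, a choice made after the data were seen, 64 genes had a value and 53 were tested. The median difference was then -0.02, with 28 of 53 below 0. In limma's fit over all probe sets 0 of the 53 were called, and 3 higher (Rpl3, Rpl37 and Rps3a1) and 3 lower (Rps23, Rps13 and Rpl39) had an unadjusted p under 0.05. The large-subunit median was 0.03, with 15 of 32 genes below 0, and the small-subunit median was -0.04, with 13 of 21 below 0. Chosen this way, the large-subunit median was above 0 and the share of members below 0 was closer to the 48.2% of all genes. What the probe sets numbered elsewhere bind was not tested.

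Within genotypes the family differed between replicates. TACI-/- replicate 1 was above TACI-/- replicate 2 in 49 of 61 members (80.3%), against 57.6% of all genes, with a median difference of 0.18 log2 units in members and 0.05 in all genes. This was so for 21 of 24 small-subunit and 28 of 37 large-subunit genes. WT replicate 1 was above WT replicate 2 in 28 of 61 members (45.9%), against 50.2% of all genes, with a median of -0.04. Set against the WT mean, TACI-/- replicate 2 had a median of -0.16 over the members and TACI-/- replicate 1 one of 5e-06. Of the 2 TACI-/- arrays, replicate 2 was thus the one with members below the WT mean in the median, and the gap between the TACI-/- replicates was larger than the median difference between genotypes. Rps20 had the widest gap between TACI-/- replicates: it was at 6.34 and 5.60 log2 units in TACI-/- and 5.52 and 6.36 in WT cells, with a difference of 0.03 ± 0.33.

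**Figure D5:**
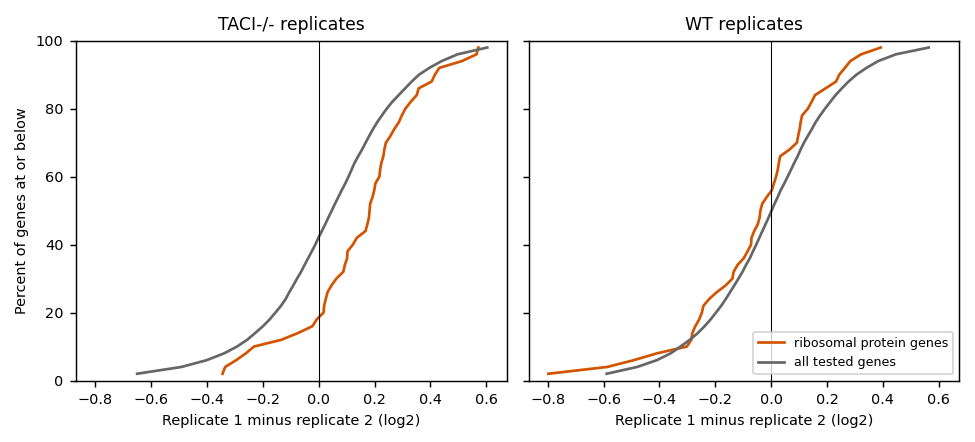
Replicate 1 minus replicate 2 (log2, horizontal axis) for the 61 tested ribosomal protein genes (orange) and all 13782 tested genes (grey), as the percent of genes at or below each value, TACI-/- on the left and WT on the right. In TACI-/- cells the orange line lies to the right of the grey one, with a median of 0.18 against 0.05, while in WT cells the medians are -0.04 and 0.00122.

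The other genes of ribosome production and translation had 0 calls in either direction by limma, over 173 tested genes of 5 lists; at an unadjusted p under 0.05, 3 were higher and 1 lower, below the 4.94% and 3.84% of all genes. Apart from Myc, genes named from these lists are those with the lowest p in their list and are given as values. Of 14 elongation and termination factors, 10 were below 0 and the median was -0.05. Eef2k, the kinase that slows elongation by phosphorylating Eef2, was at 5.62 and 5.30 log2 units in TACI-/- and 4.91 and 4.75 in WT cells, a difference of 0.63 ± 0.16 (limma adjusted p = 0.328). Its groups were separated. It was the 1 gene of that list with an unadjusted p under 0.05; Abce1, which recycles ribosomes, was at -0.23, Etf1, the release factor, at 0.23 and Tpt1, itself a TOP mRNA, at -0.23. Of 31 initiation factors, 15 were below 0, the median was 0.02 and 0 had such a p. Those with the lowest p were Eif3m at -0.31, Pabpc1, the poly(A)-binding protein, at 0.31, Eif1ax at -0.24 and Eif2b5 at -0.22.

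Of 74 ribosome assembly genes, 31 were below 0 and the median was 0.02. Bysl, needed for small-subunit assembly, was at 5.41 and 5.54 log2 units in TACI-/- and 4.72 and 5.01 in WT cells, a difference of 0.61 ± 0.15 (limma adjusted p = 0.324). Wdr12, a member of the PeBoW complex of large-subunit assembly, was at 5.35 and 5.26 in TACI-/- and 5.76 and 5.75 in WT cells, a difference of -0.45 ± 0.13 (limma adjusted p = 0.41). Both genes separated the genotypes, in opposite directions, and they were the list's only genes with an unadjusted p under 0.05. Nop16 was at -0.38 and nucleolin (Ncl) at 0.29.

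Of 28 RNA polymerase I and III genes, 13 were below 0 and the median was 0.02, with the lowest p for Znrd1, a polymerase I subunit, at -0.42 ± 0.20. Of 26 regulators of ribosomal protein synthesis, 12 were below 0 and the median was 0.01. Mdm2, the p53 ligase that Rpl5 and Rpl11 bind, was at 7.25 and 7.32 in TACI-/- and 6.92 and 6.88 in WT cells, a difference of 0.38 ± 0.13 (limma adjusted p = 0.504). Its groups did not overlap. Zfp622 was at 0.31, and Rptor and Tsc1, of the mTOR pathway, were at 0.24 and 0.27. Myc, which drives ribosome production and is given for comparison, was at -0.20 ± 0.14.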

How the data were processed

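Each of the 4 arrays gave 41345 values. The deposited values are on a log2 scale, taken from their range of 0.94 to 13.2 and from RMA; the submitters' processing notes name RMA and Partek and give no version. Of the probe sets, 23521 had exactly 1 symbol in the platform annotation. A gene was represented by its probe set with the highest mean and tested where it reached the 40th percentile of these sets on 2 or more arrays, taken array by array. The 2 genotypes were tested against each other in limma 3.58.1 (R 4.3.3; lmFit and eBayes with genotype as single term, a two-sided test, Benjamini-Hochberg adjustment, threshold 0.05), and again over all probe sets of 1 symbol. The fit was tested on simulated data. The labels call the replicates biological, but whether they came from separate mice is not stated. The p-values thus rest on the spread between these 2 samples per genotype, and cannot be taken to measure the spread between mice. In addition, eBayes draws each gene's variance towards that of all tested genes, so the SE and p of a gene are not its own spread alone. RefSeq's gene table (GRCm38.p6) was used for chromosomes and gene order.

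The members and lists were chosen with earlier results of these data known. The genes named are members past the threshold, the 10 largest differences in each direction, all members with several probe sets, and up to 4 genes by p of each role group and list; Rpl22, Rps20, the genes beside Rpl3 and others given for comparison were chosen after their values were seen. Same-numbered replicates did not deviate together (correlation -0.03), so the fit had no block. Alternatives were other filters, scalings, variance models, members and probe sets, the replicate block, and leaving out each array.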

Additional observations from a re-analysis of the deposited data

How the results depend on the processing

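Of 19 genes called, 3 were called with no low-value filter, 45 with a 60th percentile filter, 46 with a variance trend, 0 with no variance moderation and 0 to 0 without any 1 array. Of 19 probe sets called, these settings gave 10, 45, 52, 0 and 0 to 1, and the replicate block 12. Ribosomal protein genes called went from 1 to 0 with no filter, no moderation, the mean over probe sets and (0 to 0) without any 1 array. Ribosomal protein probe sets called went to 0 with no filter, no moderation and (0 to 0) without any 1 array, and to 2 with a variance trend. With the replicate number as a block, 13 genes were called, 12 of them among the 19, and Rpl3 kept its call (limma adjusted p = 0.033); the block changed no other call of a ribosomal protein gene. Without 1 array, the median difference ran from -0.16 to 5e-06 over all members, from -0.09 to 0.00065 in the large and from -0.22 to -0.0024 in the small subunit. Without 1 array the lowest and highest differences were -0.083 and 0.28 for Rpl10a, -0.15 and 0.30 for Rpl32, which was also -0.04 without TACI-/- replicate 1, and -0.078 and 0.32 for Rps18. The mean over probe sets turned Rplp1 to -0.16 and Rps3a1 to 0.14. Of 278 values of single genes under these alternatives, 265 kept direction and side of the threshold, 7 (those of Rpl3) lost the call and 6 reversed. The filters, variance models and replicate block leave a gene's difference unchanged, so no direction could reverse under them. The genes followed were those with the largest differences in these data, and apart from Rpl3 they had no call to lose. The count of values that kept direction is thus no measure of robustness. The causes were not tested. Signal near the filter limits the dim members, and 2 arrays per genotype limit all.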
